A study of Rattus norvegicus with 9 samples.

Results

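The genes described here are 7 factors that act in osteoblast transcription, namely Runx1, Runx2, Cbfb, Sp7, Dlx3, Dlx5 and Atf4, chosen by name among the 19085 genes of the deposited table. Each of the 7 names stood on 1 row. Of the 13256 genes with enough counts for a test, 6 were among the 7, and Dlx5 was below the limit. Messenger RNA was sequenced from primary calvarial osteoblasts of male Sprague-Dawley rats 24 hours of age, used at first passage and kept for 7 days in osteogenic induction medium, with 3 libraries in each of 3 groups. A tissue label names the knee instead of the calvaria. The control group received the medium alone. The thrombin group received 20 U/mL thrombin, the protease of blood clotting, and the PD03 group received the same thrombin with the MEK inhibitor PD0325901, here PD03, at 0.1 µM by the study's methods and at 0.1 mM by 1 protocol of the labels. The 3 groups include none with PD03 alone. Each PD03 library also carries thrombin, so PD03 without thrombin cannot be assessed.

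Runx proteins bind DNA through their Runt domain, and Cbfb is the partner that binds no DNA itself and strengthens the hold of Runx proteins on it. Runx2 is required for cells to enter the osteoblast lineage, Sp7 (osterix) acts after Runx2 in the same lineage, and the homeodomain proteins Dlx3 and Dlx5 are also active in bone-forming cells. Atf4, a leucine zipper protein that is controlled to a large extent at translation, and Runx2 both receive phosphate groups from kinases of the MEK-ERK cascade or downstream of it, which mRNA does not show.

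The upstream regions of Runx1, Runx2 and their partner Cbfb are given because all 3 differed between the PD03 group and the thrombin group. Each stretch holds the 250 bases before a transcription start, 5′ to 3′ on the gene's strand, from RefSeq in the build GRCr8. Capitals mark exact matches on either strand to 5 motifs: ACCACA (the Runx core), TAATTA (a homeodomain core), TGANTCA (AP-1), TGATGCA (a C/EBP-ATF element core) and GGGCGG (the GC box). RefSeq lists 2 starts for Runx2, at chr9:23664808-23665057 and chr9:23742990-23743239 on the plus strand, and counts per gene do not separate them. The stretch of Cbfb lies at chr19:49958846-49959095 on the plus strand, and that of Runx1 at chr11:45421326-45421575 on the minus strand.
Runx2 promoter 1: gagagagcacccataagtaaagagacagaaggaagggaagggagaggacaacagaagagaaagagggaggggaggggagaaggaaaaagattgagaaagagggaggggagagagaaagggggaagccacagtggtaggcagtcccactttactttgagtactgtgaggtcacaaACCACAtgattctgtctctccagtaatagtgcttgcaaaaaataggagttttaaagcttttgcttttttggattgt
Runx2 promoter 2: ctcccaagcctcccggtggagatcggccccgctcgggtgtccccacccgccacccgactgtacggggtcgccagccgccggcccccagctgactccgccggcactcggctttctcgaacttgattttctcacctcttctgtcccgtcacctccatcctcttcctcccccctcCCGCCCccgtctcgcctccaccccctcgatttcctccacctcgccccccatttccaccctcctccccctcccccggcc
Cbfb promoter: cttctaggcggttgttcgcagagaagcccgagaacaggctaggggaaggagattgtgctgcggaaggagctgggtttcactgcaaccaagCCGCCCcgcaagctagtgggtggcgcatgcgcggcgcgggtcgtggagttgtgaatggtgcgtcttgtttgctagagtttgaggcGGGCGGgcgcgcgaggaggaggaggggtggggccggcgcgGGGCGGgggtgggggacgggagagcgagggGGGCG
Runx1 promoter: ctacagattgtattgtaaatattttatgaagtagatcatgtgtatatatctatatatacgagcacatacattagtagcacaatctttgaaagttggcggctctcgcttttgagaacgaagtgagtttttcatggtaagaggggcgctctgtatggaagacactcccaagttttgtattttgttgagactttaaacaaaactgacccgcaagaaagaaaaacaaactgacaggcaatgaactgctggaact
The first Runx2 promoter held the Runx core at position -76, and 2 further copies lay at 28 and 36 past the start, outside the printed stretch. The second held a GC box at -78. Cbfb held GC boxes at -160, -75, -35 and -5, the last of which runs past the end of the printed stretch, and Runx1 held none of the 5 motifs. Among 33469 rat promoters of the same length (250 bases before to 50 after the start), 17.3% held the Runx core, 33.1% the GC box, 7.33% the AP-1 motif, 5.36% the homeodomain core and 2.96% the C/EBP-ATF core. G and C made up 45.6% of the first Runx2 stretch and 70% of the second, 68% of the Cbfb stretch and 37.2% of the Runx1 stretch. The promoter of Atf4, also listed once, held the Runx core on its other strand (TGTGGT) at 16 past the start. Such matches describe the letters only.

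Total counts per library lay between 15447832 and 19841468. The osteoblast label was compared with 6 markers. Col1a1, the main bone collagen chain, stood at 41103 to 73137 CPM (the TMM-scaled count relative to library size) and Sparc, a bone matrix protein, at 4985 to 8185 CPM, whereas Ibsp and Bglap, markers of mature osteoblasts, were at no more than 0.063 and 0.297 CPM in any library. Alpl, the alkaline phosphatase of mineralising cells, lay between 0.329 and 3.80 CPM and Phex between 0.165 and 1.07 CPM. Of the markers of other cells, Ptprc (all leukocytes) was at 0 to 0.318 CPM, Adipoq (adipocytes) at 0 to 0.063 CPM and Dcstamp (osteoclasts) at 0 to 0.063 CPM. The summed level of 4 osteoclast markers, mostly Ctsk, ranged over 132 to 143 CPM among control libraries, 98.9 to 107 CPM among thrombin libraries and 169 to 178 CPM among PD03 libraries, and that of 5 chondrocyte markers, mostly Col2a1, was 94.5 to 104 CPM, 68.6 to 74.6 CPM and 88.7 to 95.8 CPM. The chondrocyte markers did not move as 1: Sox9 and Acan were called higher and Col2a1 lower with thrombin, Col9a1 and Comp were called higher with PD03 against thrombin, and 4 of the 5 (Sox9, Col9a1, Acan and Comp) were called higher and Col2a1 lower for PD03 against control. The summed level of 6 myeloid markers, mostly Cd14, was 20.3 to 23.5 CPM, 29.1 to 32.6 CPM and 17.5 to 19.0 CPM, that of 3 endothelial markers 6.69 to 7.77 CPM, 6.31 to 8.51 CPM and 11.1 to 12.6 CPM, that of 5 adipocyte markers, mostly Lpl, 201 to 212 CPM, 97.8 to 104 CPM and 155 to 165 CPM, and that of 4 skeletal muscle markers 0.816 to 1.64 CPM, 1.11 to 1.54 CPM and 2.20 to 3.17 CPM. The tested myeloid markers did not move together either. With PD03 against thrombin Cd14 was called lower. For PD03 against control Csf1r was called higher (0.316 to 0.568 CPM in control libraries, 0.857 to 1.68 CPM in PD03 libraries). Both tested endothelial markers, Tek and Kdr, were called higher with PD03 against thrombin. None of the other lists was at 0 throughout, and their part in the results was not tested. In such bulk RNA, fewer cells of a type and less RNA per cell cannot be told apart.

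Compared per gene length, the 7 genes spanned 3 orders of magnitude in the control group. Mean FPKM (fragments scaled by gene length and library, as deposited) was 135 ± 1.97 (SD, n = 3) for Atf4, 56.4 ± 2.14 for Runx1, 32.3 ± 1.56 for Cbfb, 6.86 ± 0.343 for Runx2, 1.33 ± 0.235 for Sp7, 0.451 ± 0.0851 for Dlx3 and 0.120 ± 0.0574 for Dlx5. The order was the same in the thrombin group, and there only Dlx3 (0.142 ± 0.0309) and Dlx5 (0.0835 ± 0.0391) overlapped between libraries. In the PD03 group the first 5 genes kept their order, with Atf4 at 138 ± 5.98 and Runx2 at 4.75 ± 0.394. Dlx5 (0.210 ± 0.192) and Dlx3 (0.143 ± 0.0286) again overlapped, so the order of that pair is not resolved.

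**Figure D1:**
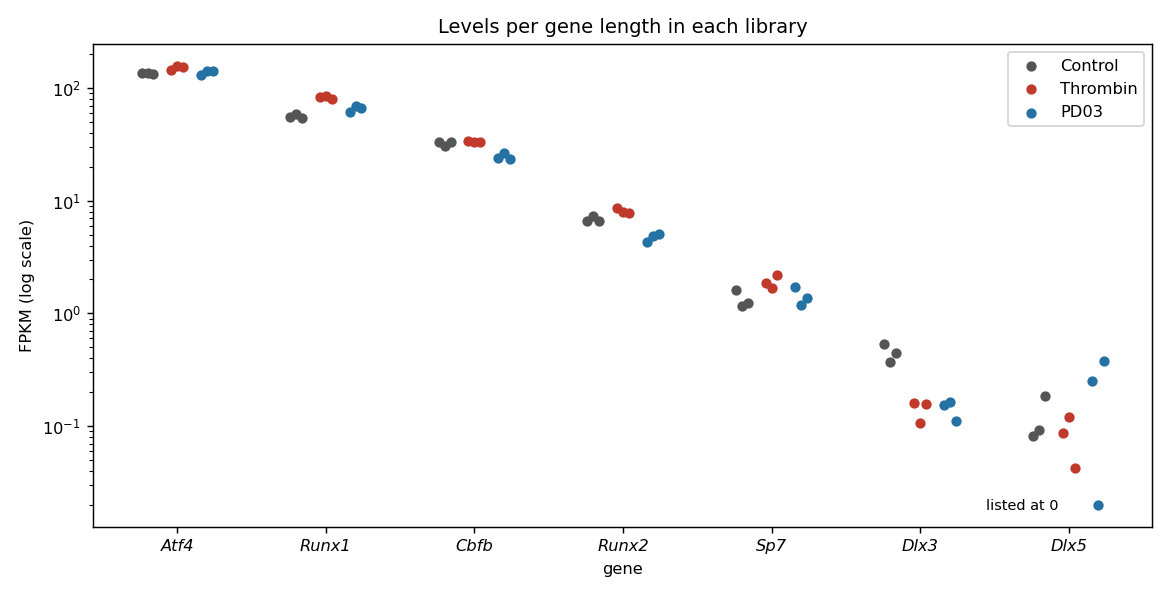
Level per gene length (deposited FPKM, log axis) of the 7 genes in each of the 9 libraries, coloured by group; the 1 value listed at 0 (Dlx5, PD03) is drawn at the bottom of the axis. Mean control levels run from 135 for Atf4 to 0.120 for Dlx5, and neighbouring genes overlap only between Dlx3 and Dlx5.

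The first comparison, thrombin against control, asks what thrombin did to these factors during induction. Runx1, Runx2, Sp7 and Atf4 rose, Dlx3 fell, and Cbfb did not pass the test. Calls needed both an adjusted p (edgeR's quasi-likelihood test, Benjamini-Hochberg over the 13256 genes) under 0.05 and a log2 fold change beyond 0.58 in either direction. By that rule Dlx3 was the 1 gene called of 6 tested, against 8.06% of all tested genes (2.62% higher and 5.44% lower). With the adjusted p alone, 5 of the 6 passed, against 28.7% of all tested genes, and the libraries of the 2 groups did not overlap for the same 5, against 40.3%. The median log2 fold change of the 6 was 0.22, against -0.01 over all tested genes.

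Runx1 (ENSRNOG00000001704), which is best known from blood cell development and is also made in skeletal progenitors, had the largest rise. Its level was 135, 145 and 135 CPM in the control libraries and 207, 209 and 197 CPM in the thrombin libraries. All thrombin libraries stood above all control libraries. The log2 fold change was 0.57 (standard error, SE, 0.04, 95% confidence interval 0.48 to 0.66, adjusted p = 5.3e-14), just under the fold threshold, and Runx1 was called without control replicate 2 (0.60) or without thrombin replicate 3 (0.59).

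Runx2 (ENSRNOG00000020193), the factor that commits cells to bone, rose less. It stood at 41.0, 45.5 and 41.9 CPM in the control libraries and at 53.8, 49.7 and 49.8 CPM in the thrombin libraries. Again the groups were separate, with a log2 fold change of 0.26 (SE 0.07, adjusted p = 0.0022). The partner gene Cbfb (ENSRNOG00000014647) was at 92.1, 86.7 and 94.998 CPM without and 96.7, 95.5 and 94.8 CPM with thrombin. The 2 ranges overlapped (log2 fold change 0.07, 95% confidence interval -0.04 to 0.17, adjusted p = 0.36).

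Sp7 (ENSRNOG00000014082), the zinc finger factor of preosteoblasts, had lower counts, 59 to 93 per library in the control group and 99 to 122 with thrombin. Its level was 5.06, 3.73 and 3.98 CPM in the control libraries and 6.07, 5.43 and 7.11 CPM in the thrombin libraries. Every thrombin library was above every control library, with a log2 fold change of 0.53 (SE 0.18, 95% confidence interval 0.18 to 0.89, adjusted p = 0.018). This result leaned on single libraries: without thrombin replicate 3 it was 0.42 (adjusted p = 0.12), without control replicate 2 or 3 the adjusted p was 0.087 or 0.063, and Sp7 was called without control replicate 1 (0.68) or thrombin replicate 2 (0.63).

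Dlx3 (ENSRNOG00000004278), a homeodomain factor of bone, tooth and skin, fell. It had 25, 15 and 18 counts in the control libraries against 7, 5 and 7 with thrombin, or 1.36, 0.947 and 1.14 CPM against 0.416, 0.274 and 0.408 CPM. The lowest control library was above the highest thrombin library. The log2 fold change was -1.64 (SE 0.44, 95% confidence interval -2.53 to -0.76, adjusted p = 0.0031). Only the control libraries were above the filter on low counts (0.592 CPM), so a gene of this kind enters the test only through the group where it is high. Tested by glmTreat of edgeR, which asks whether a change exceeds the fold threshold, its adjusted p was 0.069.

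Atf4 (ENSRNOG00000017801), the stress and amino acid response factor that osteoblasts need for late differentiation, stood at 192, 198 and 192 CPM in the control libraries and 209, 228 and 222 CPM in the thrombin libraries. The groups did not overlap, but the difference was small (log2 fold change 0.18, SE 0.04, adjusted p = 6.1e-04). Dlx5 (ENSRNOG00000010905), which was not tested, had 2, 2 and 4 counts in the control libraries and 2, 3 and 1 with thrombin. At this depth no difference in Dlx5 was detectable.

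**Figure D2:**
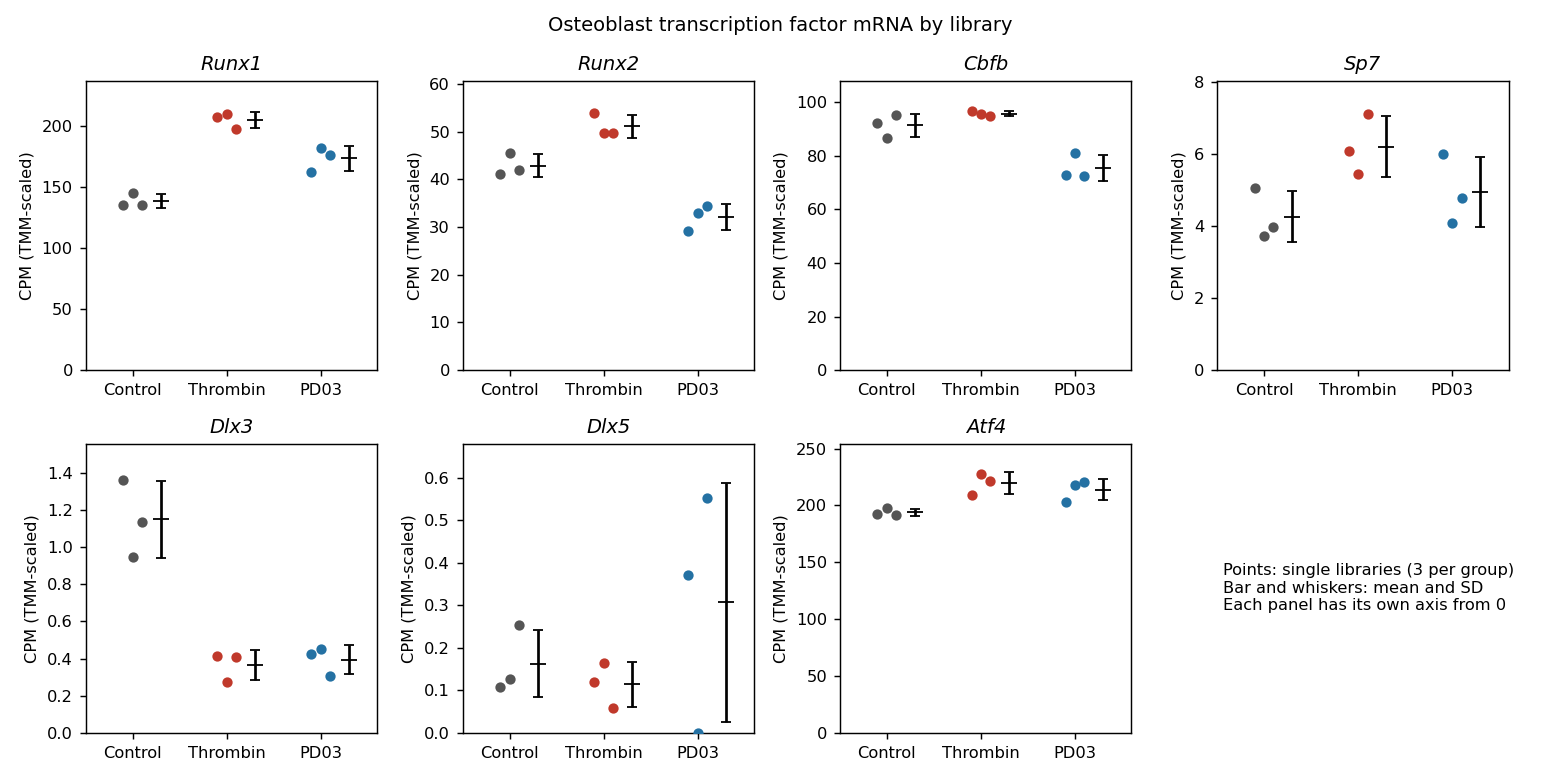
Level (CPM after TMM scaling, axes from 0) of each of the 7 genes by group; points are single libraries and the bar with whiskers is the mean and SD of 3 libraries. Runx1 and Runx2 separate all 3 groups, the PD03 libraries of Runx2 and Cbfb are the lowest, and Dlx3 has a mean of 1.15 CPM in control libraries and 0.366 CPM in thrombin libraries.

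The second comparison, PD03 against thrombin, asks what changed when MEK was inhibited in the presence of thrombin. It shares the thrombin libraries with the first, so opposite signs in the 2 are not independent. Here Runx1, Runx2 and Cbfb fell, and Sp7, Dlx3 and Atf4 did not pass the test. Runx2 was the 1 gene called of 6, against 15.9% of all tested genes (9.61% higher and 6.31% lower). With the adjusted p alone 3 of 6 passed, all lower, against 49.8% of all tested genes and 24.5% lower. The same 3 genes had libraries that did not overlap, against 55.5%. The median log2 fold change of the 6 was -0.28, against 0.01 over all tested genes.

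Runx2 was at 29.1, 33.0 and 34.3 CPM in the PD03 libraries, below the 49.7 to 53.8 CPM with thrombin and also below the 41.0 to 45.5 CPM of the control group. Its log2 fold change was -0.67 (SE 0.07, 95% confidence interval -0.81 to -0.54, adjusted p = 2.5e-11), a fall by 37.2%. It was called with each library left out in turn, but by glmTreat the adjusted p was 0.26.

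Cbfb was at 72.6, 81.0 and 72.4 CPM in the PD03 libraries. All 3 were below every thrombin library, with a log2 fold change of -0.35 (SE 0.05, adjusted p = 2.9e-07). Runx1 was at 162, 182 and 176 CPM, below the thrombin libraries and above the control libraries. Its log2 fold change against thrombin was -0.24 (SE 0.04, adjusted p = 1.0e-05).

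Sp7 was at 5.99, 4.08 and 4.78 CPM with PD03. These values overlapped with the thrombin group (log2 fold change -0.31, 95% confidence interval -0.66 to 0.03, adjusted p = 0.13), and without PD03 replicate 1 the change was -0.48 (adjusted p = 0.036). Dlx3, with 8, 7 and 5 counts or 0.424, 0.453 and 0.306 CPM, overlapped with the thrombin libraries. Its log2 fold change of 0.11 had an interval from -0.96 to 1.19 (adjusted p = 0.88), too wide at these counts to show a return or its absence. Atf4, at 203, 218 and 221 CPM, also overlapped with the thrombin group (log2 fold change -0.04, 95% confidence interval -0.12 to 0.04, adjusted p = 0.44). With library totals in place of TMM factors, which put the median over all genes at -0.09, Sp7 (-0.41, adjusted p = 0.041) and Atf4 (-0.14, adjusted p = 0.0037) passed the adjusted p. Dlx5 had 7, 0 and 9 counts in the PD03 libraries. The count of 0 allows up to 0.194 CPM (3 counts), and fitted without the filter, Dlx5 had a log2 fold change of 1.37 (SE 0.95, adjusted p = 0.29).

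**Figure D3:**
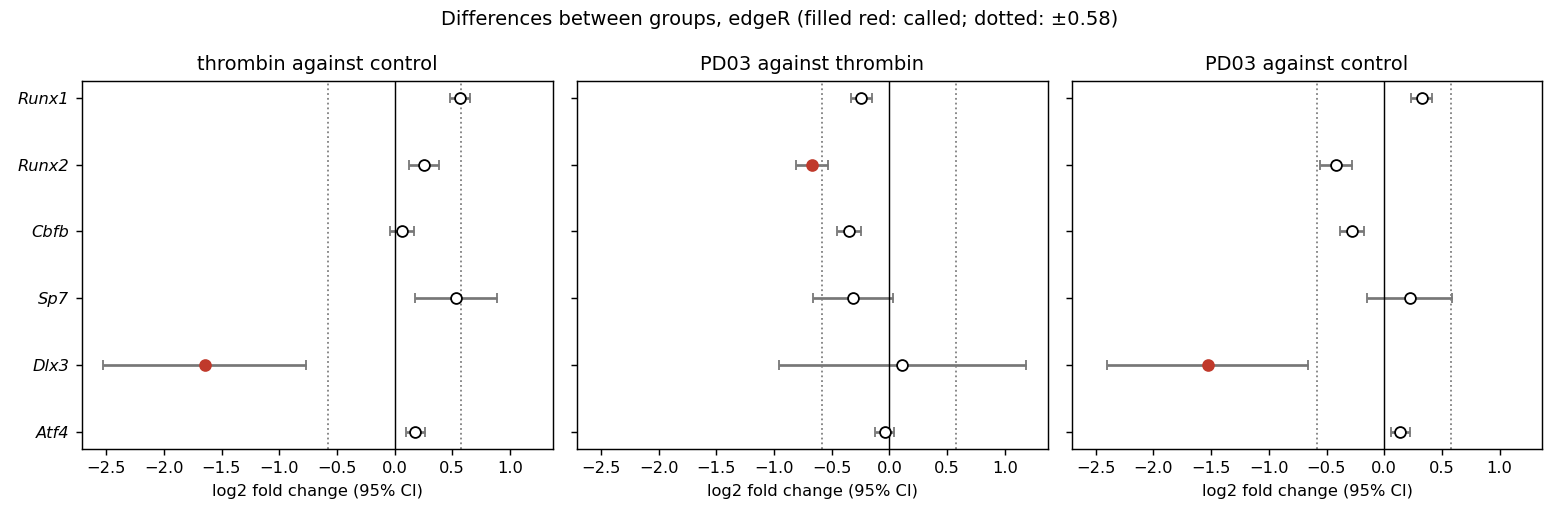
Log2 fold change (points, with 95% confidence intervals) of the 6 tested genes in the 3 comparisons; filled red points are called and dotted lines mark the fold threshold of 0.58. Dlx3 is the called gene against control in both treated groups, and Runx2, at -0.67, in PD03 against thrombin.

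The third comparison, PD03 against control, asks how far the factors stood from cells without thrombin. Runx1 (log2 fold change 0.32, SE 0.04, adjusted p = 9.6e-08) and Atf4 (0.14, SE 0.04, adjusted p = 0.0053) were higher, and Runx2 (-0.42, SE 0.07, adjusted p = 3.2e-06) and Cbfb (-0.28, SE 0.05, adjusted p = 2.4e-05) were lower. Dlx3 was the 1 gene called of 6 (-1.53, SE 0.43, adjusted p = 0.0038), against 8.97% of all tested genes (4.9% higher and 4.07% lower). Only the control libraries of Dlx3 were above the filter on low counts, so it entered the test through the group where it was high. With the adjusted p alone 5 of 6 passed, 2 higher and 3 lower, against 39.9% of all tested genes (19.7% higher and 20.2% lower), and the libraries of these 5 did not overlap, against 47.8%. Sp7 overlapped (0.22, 95% confidence interval -0.15 to 0.59, adjusted p = 0.36). With library totals the median of all genes was -0.12 and Atf4 no longer passed (0.02, adjusted p = 0.65), while the other 4 did. Runx1 was thus between its control and thrombin levels in the PD03 group, and Runx2 and Cbfb were below both groups.

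Ratios within a library do not depend on how libraries are scaled. The FPKM of Runx2 was 11.9%, 12.3% and 12.2% of that of Runx1 in the control libraries, 10.2%, 9.31% and 9.89% in the thrombin libraries and 7.06%, 7.11% and 7.66% in the PD03 libraries. The 3 groups were separate, with means of 12.1% ± 0.217, 9.80% ± 0.446 and 7.27% ± 0.331 (SD, n = 3). Runx1 rose more than Runx2 with thrombin and fell less with PD03. Runx2 relative to Cbfb was 21.3% ± 2.14, 24.2% ± 0.890 and 19.4% ± 1.85, where the control libraries overlapped with both other groups and the thrombin and PD03 libraries did not overlap with each other. Sp7 relative to Runx2 was 19.5% ± 4.15, 23.8% ± 3.61 and 30.5% ± 8.49, where thrombin overlapped with both other groups and PD03 replicate 1 was highest at 40.2%. The ratio of Dlx5 to Dlx3 rests on too few counts to be read.

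**Figure D4:**
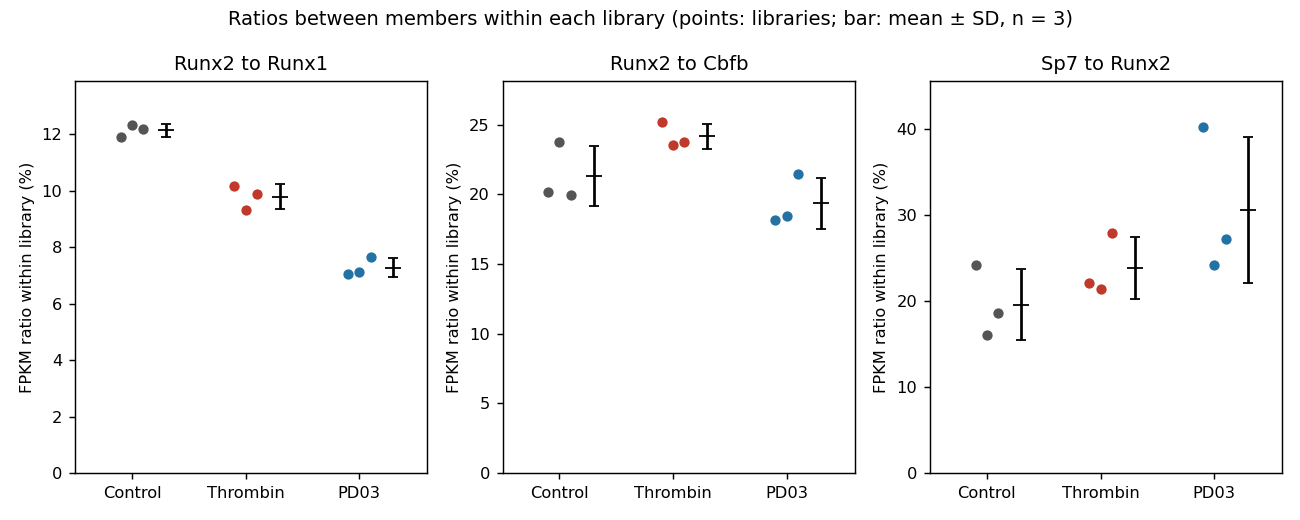
FPKM of 1 gene as a percentage of another within each library, by group (points, libraries; bar and whiskers, mean and SD, n = 3; axes from 0). Runx2 to Runx1 steps down from 12.1% to 9.80% and 7.27% without overlap, whereas in each of the other ratios at least 1 pair of groups overlaps.

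The gene that ranked 2 of all in likeness to Runx2 over the 9 libraries was Mki67, the Ki-67 antigen of dividing cells. The root mean square difference of its centred log2 CPM from Runx2 was 0.054, against a median of 0.307 over 10274 tested genes with at least 5 CPM. The log2 fold changes of Mki67 were 0.22 with thrombin and -0.66 with PD03 against thrombin, beside 0.26 and -0.67 for Runx2. Their closeness follows from the choice by likeness over the same libraries. The genes most like Dlx3 were the interferon-induced transmembrane gene Ifitm1 (0.207) and the tyrosine phosphatase gene Ptprv (0.236), against a median of 0.681 over 10275 genes. The same 2 log2 fold changes were -1.45 and 0.26 for Ifitm1 and -1.51 and 0.03 for Ptprv, beside -1.64 and 0.11 for Dlx3.

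The counts of the lists that follow stand beside shares over all tested genes. Called higher and lower were 2.62% and 5.44% with thrombin, 9.61% and 6.31% with PD03 against thrombin, and 4.9% and 4.07% for PD03 against control. A count near these shares is not a result about its list. Of 12 relatives of these factors in the table, 9 were tested. With thrombin, Runx3 (4.79 to 9.63 CPM, log2 fold change 1.01) and Msx2 (58.3 to 96.1 CPM, 0.72) were called higher, and the corepressor gene Runx1t1 (12.3 to 6.69 CPM, -0.88) and Dlx4, below 1 CPM and named after its values were seen, were called lower. The third Runx gene and the homeobox repressor Msx2 thus rose with Runx1 and Runx2. Of the relatives, only 1 was called lower with thrombin by DESeq2 or with limma on log2 FPKM. The same held without control replicate 1 or 3 or thrombin replicate 2 or 3, and by glmTreat 0 were called lower. With PD03 against thrombin 2 were called higher and 1 lower. Msx2 fell to 50.9 CPM (-0.92), and Runx1t1 reached 10.0 CPM (0.58, at the fold threshold). The calls in the higher direction did not hold: 0 were called higher and 2 lower with library totals, 0 and 1 by DESeq2, with no filter and without control replicate 2 or 3, thrombin replicate 3 or PD03 replicate 2, and 1 and 1 without control replicate 1, thrombin replicate 2 or PD03 replicate 1. For PD03 against control 0 of the 9 were called by edgeR, DESeq2 or limma voom, and 5 had an unadjusted p under 0.05 in edgeR.

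Of 14 cooperating factors, all tested, 1 was called with thrombin, the zinc finger gene Zbtb16, from 1.50 to 0.285 CPM (log2 fold change -2.34). With PD03 against thrombin 3 were called higher, among them Maf (27.5 to 44.9 CPM, 0.71) and the retinoblastoma gene Rb1 (13.9 to 21.8 CPM, 0.66), and Cebpb was called lower (550 to 367 CPM, -0.58, at the fold threshold). The call of Cebpb was lost by glmTreat and without thrombin replicate 1 or 2 or PD03 replicate 2 or 3. Maf (0.59) and Rb1 (0.59) were also called higher for PD03 against control. Neither call held with library totals, with no filter on low counts, with limma on log2 FPKM or by glmTreat. Both were also lost without control replicate 3, thrombin replicate 1 or thrombin replicate 2. Without any other control or PD03 library, 1 of the 14 was called. Of 16 tested restraining factors, Sox9, the chondrocyte factor that holds Runx2 back, was called higher with thrombin (7.68 to 14.3 CPM, 0.89) and in the PD03 group against control (16.2 CPM, 1.08), Snai2 was called lower with thrombin (23.2 to 14.6 CPM, -0.67), and Hivep3, which promotes loss of Runx2 protein, was called higher with PD03 against thrombin (5.52 to 8.97 CPM, 0.70). The call of Hivep3 was lost without thrombin replicate 2 or PD03 replicate 3, with limma on log2 FPKM and by glmTreat. In that comparison 2 of the 16 were called higher without thrombin replicate 1. Without control replicate 2 or thrombin replicate 3, 2 were called lower with thrombin. The median log2 fold change of the cooperating list was -0.003, 0.05 and 0.05 in the 3 comparisons, and that of the restraining list 0.08, -0.10 and 0.01.

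Matrix and mineral genes were counted because Runx2, Sp7 and Dlx factors are known to act on many of them. Of 17 in the table, 12 were tested. Ibsp, Dmp1, Bglap, Tnfsf11 and Sost were at no more than 5 counts in any library and were not tested. With thrombin, 2 were called higher and 5 lower, with a median log2 fold change of -0.23. Alpl went from 1.67 ± 0.816 to 0.345 ± 0.0145 CPM (log2 fold change -2.24, SE 0.42, adjusted p = 4.0e-05), Tnfrsf11b, the decoy receptor osteoprotegerin, from 120 to 57.3 CPM (-1.07), and Spp1, osteopontin, from 63.7 to 185 CPM (1.54). With PD03 against thrombin 6 were called higher and 2 lower, with a median of 0.59. Panx3, a channel of maturing osteoblasts, rose to 2.44 ± 0.252 CPM (4.32, against 0.116 CPM), Alpl to 3.11 ± 0.636 CPM (3.14) and the receptor gene Fgfr3 from 8.92 to 48.6 CPM (2.45). The mean of Panx3 was under the filter on low counts (0.592 CPM) with thrombin and in the control group (0.506 ± 0.334 CPM). Panx3 therefore entered the test only through the PD03 group, where it was high. For PD03 against control 5 were called higher and 1 lower, with a median of 0.52, and 3 and 1 without control replicate 1. Panx3 (2.27) and Fgfr3 (1.66) were higher, and the collagenase gene Mmp13 was lower (12.3 to 3.72 CPM, -1.73). By the adjusted p alone, 8 of the 12 were higher and 2 lower in the PD03 group than in the control group. Of all tested genes 19.7% were higher and 20.2% lower by that rule. Runx2 and Cbfb were lower in the same comparison. With library totals the medians were -0.25, 0.49 and 0.40.

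**Figure D5:**
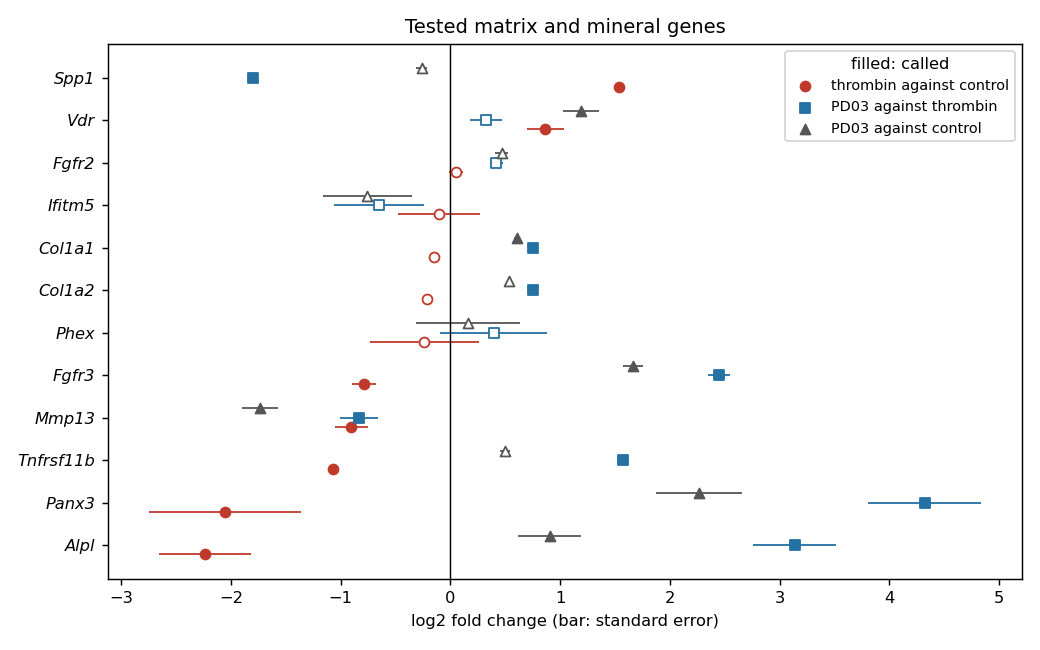
Log2 fold change (points; bars, standard error) of the 12 tested matrix and mineral genes in the 3 comparisons; filled symbols are called. Alpl, Panx3, Tnfrsf11b and Fgfr3 lie left of 0 with thrombin and right of 0 with PD03 against thrombin, and Spp1 the reverse.

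Of 6 genes for kinases that act toward Atf4, with their substrate Eif2s1 among them, 0 were called with thrombin or for PD03 against control by edgeR, DESeq2 or limma voom, and 3 and 5 had an unadjusted p under 0.05 in edgeR. With PD03 against thrombin Rps6ka3, the kinase RSK2 that phosphorylates Atf4, was called higher (41.4 to 63.2 CPM, log2 fold change 0.61). The call of Rps6ka3 was lost with library totals, with limma on log2 FPKM, by glmTreat and without thrombin replicate 1. Of 15 tested Atf4 targets, 3 were called higher and 1 lower with thrombin, among them Trib3 (2.73 to 4.34 CPM, 0.68), Ddit4 (24.0 to 36.7 CPM, 0.61) and Atf3 (3.14 to 1.97 CPM, -0.67). These calls rested on single libraries: 0 were called higher and 1 lower without control replicate 2, 1 and 0 without thrombin replicate 2, and 2 and 0 without control replicate 1 or thrombin replicate 1, while without control replicate 3, and by DESeq2, the 1 lower call was lost. With PD03 against thrombin 2 were called in each direction, Atf3 (to 5.73 CPM, 1.53) and Vldlr (9.29 to 24.4 CPM, 1.39) higher and, with the larger fall, Ddit4 (to 16.8 CPM, -1.12) lower. For PD03 against control, Vldlr (1.86) and Atf3 (0.85) were called higher and 0 lower by edgeR, but with library totals 2 were called higher and 3 lower. Without control replicate 3 or PD03 replicate 3 the count was 3 higher and 0 lower, and without PD03 replicate 1 it was 2 and 1. The median of the 15 was 0.18, -0.15 and 0.06 in the 3 comparisons, beside 0.18, -0.04 and 0.14 for Atf4 itself.

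As a check of the inhibitor, 11 genes that MEK and ERK are known to induce were counted. With PD03 against thrombin 9 were called lower and 0 higher (median log2 fold change -1.18), among them Egr1 (243 to 18.7 CPM, -3.70), Phlda1 (105 to 16.3 CPM, -2.70) and Etv4 (14.5 to 2.37 CPM, -2.62). For PD03 against control 9 were called lower (median -1.43), with Egr1 at -4.18, Dusp6 at -2.80 and Etv4 at -2.57. By the adjusted p alone 10 were lower and 1 was higher (0.56). In that comparison 1 gene was called higher without control replicate 2 or 3 or PD03 replicate 1. With thrombin the median was 0.02. Phlda1 (0.98) and Dusp4 (0.94) were called higher, and by the adjusted p alone 3 of the 11 were higher and 4 lower, Egr1 among the lower (339 to 243 CPM, -0.48). Without thrombin replicate 1, 2 were called higher and 2 lower. The falls of Runx2, Cbfb and Runx1 with PD03 were smaller in size than the median of these genes.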

How the data were processed

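The authors sequenced messenger RNA from primary rat osteoblasts in 9 libraries, and their methods speak of independent samples in each group. Trimming with fastp, alignment with HISAT2 and counting per gene with featureCounts are given in the study's methods with the build Rnor_6.0, whereas the submitters' processing notes name HISAT2, HTSeq 0.13.5 and mRatBN7.2. The sources used here do not name the annotation release or the strandedness, so reads from antisense genes could not be set apart. For each gene and library the authors deposited a raw count beside an FPKM value.

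From the counts, genes were kept with edgeR's filterByExpr at a minimum count of 10, libraries were scaled by TMM, and 1 model of the 3 groups was tested by edgeR's quasi-likelihood method (R 4.3.3, edgeR 4.0.16, limma 3.58.1, DESeq2 1.42.0; figures with Python 3.11.15 and matplotlib 3.10.9). Adjustment followed Benjamini and Hochberg across the tested genes, standard errors came from the F statistic, and calls needed an adjusted p under 0.05 with a log2 fold change beyond 0.58 in either direction. The procedure was also run on simulated counts drawn from the kind of model that it fits. The changes put into them left out genes with counts as low as those of Dlx3 and sizes near the fold threshold. The biological coefficient of variation was 4.28%. Within a group, every pair of libraries exceeded sampling noise (chi-square divided by its degrees of freedom was 1.82 to 3.99), so none was treated as a copy of another; this does not show whether they came from separate cultures. Floors of 3 counts cover counting error only. FPKM values were used for levels between genes, for ratios and as an alternative on the scale log2(FPKM + 1) or log2(FPKM + 0.1). Promoter sequences came from a RefSeq table of the build GRCr8 with entries for Runx1, Runx2, Cbfb and Atf4. No coordinates of the 2 builds were joined.

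The 7 genes and the gene lists were chosen with earlier results of these data known. All 7 are named with values. Of the other lists, up to 3 called genes per list and comparison were named, by the largest log2 fold change in size among those with at least 1 CPM in the higher group. Of the genes most like a called factor, the rule took 2 for each, of which 1 is not reported here.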

Additional observations from a re-analysis of the deposited data

How the results depend on the processing

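Of the 7 genes, 1 was called in each comparison. In both comparisons with the control group this was 0 with a mean count of at least 50 (Dlx3 was then not tested), 0 on log2(FPKM + 1), where Dlx3 stood at -0.34 in both, 0 with edgeR's glmTreat and 5 with no fold threshold. For PD03 against thrombin it was 3 with no fold threshold, 0 with a log2 fold change above 1 and 0 with glmTreat. Leaving out 1 library at a time gave 1 to 2, 1 to 1 and 1 to 1. Of the 7 other lists, 20 genes were called with thrombin, 30 with PD03 against thrombin and 20 with PD03 against control. With no fold threshold these were 46, 54 and 50, and with a log2 fold change above 1 they were 7, 16 and 13. With thrombin they were also 12 on log2(FPKM + 1) and 9 with glmTreat. Leaving out 1 library gave 15 to 20, 26 to 30 and 17 to 22. For Dlx3 in PD03 against thrombin, which passed in no setting, leaving out 1 library gave -0.072 to 0.258, and the negative value came without thrombin replicate 2 (adjusted p = 0.94, edgeR).

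Runx1, Runx2 and Cbfb passed the adjusted p in all 19 tests of PD03 against thrombin and of PD03 against control, under other scaling, filters, tools and left-out libraries, and Runx1 and Atf4 in all 19 with thrombin. Runx2 passed in 18 with thrombin, the exception being log2(FPKM + 0.1) (limma, adjusted p = 0.050). Sp7 passed in 15 with thrombin, and Atf4 in 16 for PD03 against control, all but library totals and both FPKM scales. Dlx3 passed in all 18 tests against control in either treated group. These settings reuse the same counts, and by the main filter Dlx3 entered only through the control group. Same-numbered libraries of different groups did not deviate together (correlations across genes -0.05 to 0.05 over 9 pairs). No pairing by number was seen, but this does not show whether same-numbered libraries shared a culture or batch. In each group the pairs with replicate 1 had a higher chi-square per degree of freedom (3.02 to 3.99) than replicates 2 and 3 (1.82 to 2.13). With the replicate block, 1 of the 7 genes was called in each comparison, and over all tested genes 1067, 2103 and 1187 were called against 1068, 2110 and 1189. The low counts of Dlx3 and Dlx5 limit what can be seen of both.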
